A study of Mus musculus with 2 samples.

Results

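Antisense long non-coding RNA loci are genes whose transcripts are read from the DNA strand opposite a coding gene. In nucleoplasmic RNA of mouse macrophages, 485 such loci were detected of 3067 in the annotation (15.8%), which lists 55536 genes in all. A locus was taken when at least 1 of its transcripts had the biotype antisense and none the biotype protein_coding or lincRNA, and when its deposited RSEM TPM (a transcript level scaled by length and by library) was at least 0.5 in both libraries. The symbols Airn, Kcnq1ot1 and Tsix were left out. The loci were therefore selected on measured TPM, and their levels are given as a description. Of the 3067 loci, 1540 had 0 counts in both libraries, 63 reached the threshold in replicate 1 alone and 178 in replicate 2 alone.

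Both libraries came from bone marrow-derived macrophages of C57BL/6J mice, primary phagocytes grown from marrow cells. They received lipid A, the TLR4-activating moiety of bacterial lipopolysaccharide, at 100 ng/ml for 12 h, then a washout of 12 h, then 100 ng/ml lipid A again for 90 min. The RNA was ribo-depleted total RNA of the nucleoplasm, which the labels elsewhere call nuclear. There is 1 group of 2 replicates with the same donor entry, so the spread between them may be technical. No contrast between conditions exists in these data and no test was made. Replicate 1 began from 1 µg of RNA and yielded 29400104 gene counts, and replicate 2 began from 500 ng and yielded 17789543. Macrophage markers were present (10 of 10 at 1 TPM or more, summing to 1665 and 2298 TPM), while no listed marker of neutrophils, lymphocytes, stroma, endothelium or erythroid cells reached 1 TPM, their list sums running from 0.01 to 1.06 TPM.

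Antisense transcripts can start inside the coding gene, at its 3' end, or at its promoter in the opposite direction. Many are spliced and polyadenylated yet stay in the nucleus, and some are known to act on the transcription or the processing of the gene they overlap. Macrophages carry several that lie opposite genes of the inflammatory response. Since both strands are transcribed over the same bases, the level of an antisense RNA can be measured only as well as reads are assigned to a strand or to splice junctions.

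The splice junctions below belong to 5 abundant loci and are shown because, among annotated transcripts, a read across one of them points to the antisense transcript without knowledge of strand. Each run holds the last 15 bases of exon 1 in lower case and the first 15 bases of exon 2 in capitals, from the GENCODE M21 transcript with the highest mean share of its locus's TPM. None of the 5 runs occurred in a transcript of another gene, and none had its reverse complement in any M21 transcript.
Gm28913: cacagcagccacaggGAAAAATACACCTAC
Zeb2os: cggaaaacctggaaaGGGAGAGAAGAGAGA
Gm40578: gtcacctgcgttgtgCCCTGGCTGTCCTGA
Gm26716: tgaactcaggacaggCTGTGCCAACTGCCT
Gm15655: tacgggggaattcagGCTCGGGAAGGTCCT
The introns between these exons were 3056 bases long in Gm28913 (opposite Ikbke), 1796 in Zeb2os (opposite Zeb2), 1107 in Gm40578 (opposite Tnfaip2), 1505 in Gm26716 (opposite Sdc3) and 1716 in Gm15655 (opposite Maf). Reads over single junctions were not analysed here, so the values below are sums over whole loci.

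RefSeq promoter windows of GRCm38.p6, reaching from 250 bases before to 50 bases after a gene start, matched 176 of the 485 loci with 224 windows. The match was by symbol, chromosome and strand. In 95 of the windows, from 92 loci, the RefSeq start lay within 50 bases of the GENCODE start of the locus. All 224 windows entered the shares below. The windows are shown for Gm16712, an abundant locus whose 5' end lies 282 bases from the start of Yju2 and which overlaps Ebi3, and for Rab26os, which stood above its sense gene. In the first (chr17:55959352-55959651, minus strand) capitals mark matches to the GC box, GGGCGG, and to a C/EBP site, TTNNGNAA. In the second (chr17:24528001-24528300, plus strand) they mark a PU.1 site, GAGGAAGT, a TATA box, TATAAA, and a C/EBP site.
Gm16712: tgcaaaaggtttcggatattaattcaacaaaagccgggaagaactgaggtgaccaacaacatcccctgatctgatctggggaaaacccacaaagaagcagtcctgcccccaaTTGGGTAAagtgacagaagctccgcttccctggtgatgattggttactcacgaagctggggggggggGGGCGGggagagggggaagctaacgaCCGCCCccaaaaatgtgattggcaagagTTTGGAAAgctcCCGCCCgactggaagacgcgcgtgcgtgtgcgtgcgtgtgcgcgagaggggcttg
Rab26os: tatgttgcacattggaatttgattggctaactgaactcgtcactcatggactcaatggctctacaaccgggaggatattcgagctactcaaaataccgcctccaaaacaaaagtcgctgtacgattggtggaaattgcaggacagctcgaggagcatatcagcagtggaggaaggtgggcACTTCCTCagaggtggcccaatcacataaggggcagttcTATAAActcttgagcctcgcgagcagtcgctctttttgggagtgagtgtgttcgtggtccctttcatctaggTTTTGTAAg
Both strands were searched in every window of the table, and matches of different motifs may overlap. The GC box was found in 35.7% of the antisense windows and 35.7% of all 32851 windows, and the C/EBP letters in 45.1% and 40.7%. A TATA box was found in 8.48% of the antisense windows against 13.6% of all windows, the PU.1 letters in 4.91% against 3.20%, and the AP-1 letters TGANTCA in 6.70% against 7.81%. The NF-κB letters GGANTTTCC were present in 6 of 224 antisense windows (2.68%, against 1.25% of all windows) and the interferon-response letters GAAANTGAA in 1 (0.446%, against 2.21%). The median GC content was 53.0% in the antisense windows and 52.7% in all. These are letter matches in fixed windows, and binding was not measured.

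Most detected loci were rare and a few were abundant. Median levels were 1.60 TPM (replicate 1) and 2.35 TPM (replicate 2), a mean of 1.98 ± 0.530 (SD, n = 2). Of the 485 loci, 392 had a mean of at least 1 TPM, 94 of at least 5, 40 of at least 10 and 20 of at least 20. Together they took 0.421% of gene counts in replicate 1 and 0.50% in replicate 2, and the 15 most abundant held 34.6% and 32.9% of their summed TPM. In bulk RNA a low level in every cell and a high level in few cells cannot be told apart. The log2 TPM of the 485 loci had a Pearson correlation of 0.87 between the replicates, over points that share annotation and quantification and were all chosen for reaching the threshold in both.

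**Figure D1:**
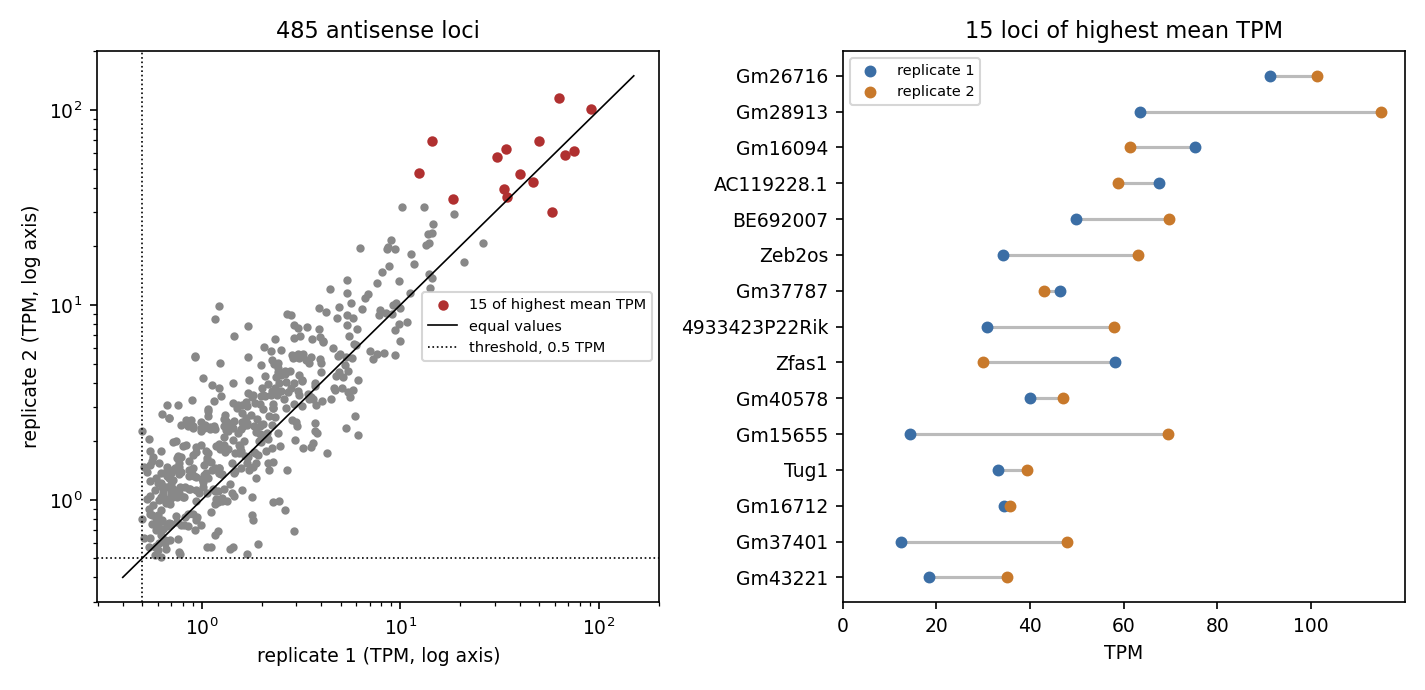
Left, TPM of the 485 loci in replicate 1 against replicate 2, both axes logarithmic, with the 15 loci of highest mean TPM in red and the threshold of 0.5 TPM dotted; right, TPM of those 15 loci in each replicate, joined by a line. Most loci lie under 5 TPM, and Gm15655 and Gm37401 stand far apart between the replicates (14.4 and 69.4 TPM, 12.4 and 47.8 TPM).

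The most abundant locus by mean, Gm26716, lies inside Sdc3, a cell-surface heparan sulfate proteoglycan gene, and measured 91.3 and 101 TPM. All of its 415 exon bases fall in Sdc3 exons, and the kallisto quantification of the same libraries put it at only 2.88 and 12.2 TPM. What sets the quantifications apart here was not tested. Sdc3 itself measured 111 and 110 TPM.

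Gm28913 lies inside Ikbke, which encodes the kinase IKKε of the TLR and interferon pathways, at chr1:131263330-131266749 on the plus strand of mm10. It measured 63.4 and 115 TPM from 452 and 434 counts over 364 exon bases, of which 17.9% are shared with Ikbke exons. A neighbouring locus inside the same gene, Gm28914, measured 14.7 and 25.98 TPM. Ikbke stood at 398 and 301 TPM, so both antisense loci were higher in replicate 2 while the coding gene was higher in replicate 1.

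Gm16094 overlaps no coding gene on the other strand and starts 469 bases from the start of Sp110, an interferon-inducible nuclear body gene. It measured 75.2 and 61.4 TPM. AC119228.1, inside Cd274, the gene of the checkpoint ligand PD-L1, measured 67.5 and 58.8 TPM and carried the most counts of all 485 loci (12608 and 5982). BE692007, opposite the membrane protein gene Ms4a6c, measured 49.7 and 69.7 TPM. Values of these 3 loci differed by less than 1.5-fold between the replicates.

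Zeb2os, at chr2:45110707-45114087 on the plus strand, lies inside Zeb2, a zinc-finger transcription factor gene of macrophage identity. It measured 34.2 and 63.1 TPM, against 368 and 520 TPM for Zeb2. Gm37787, inside the SLAM-family receptor gene Slamf7, measured 46.4 and 43.0 TPM, with 72.3% of its exon bases in Slamf7 exons. 4933423P22Rik, in introns of the receptor phosphatase gene Ptprj, shares no exon bases with it and measured 30.8 and 57.8 TPM.

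Zfas1, a small nucleolar RNA host gene that starts 81 bases from the start of Znfx1, measured 58.2 and 30.1 TPM, while Znfx1, an interferon-inducible RNA helicase gene, measured 112 and 79.4. Gm40578, which crosses the TNF-inducible gene Tnfaip2, measured 40.1 and 47.0 TPM. Tug1, a long non-coding RNA that starts 482 bases from the start of Morc2a, measured 33.2 and 39.5 TPM, above Morc2a at 6.77 and 8.08. By TPM, Zfas1 and its neighbour were both higher in replicate 1, and Tug1 and its neighbour were both slightly higher in replicate 2. The log2 TPM ratio of replicate 2 over replicate 1 was 0.25 for Tug1, below the median of 0.34 over all genes averaging 10 counts or more. For Tug1 the log2 ratio of scaled counts was 0.14 by RSEM and -0.27 by kallisto.

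The other 4 of the first 15 were Gm15655, Gm16712, Gm37401 and Gm43221. Gm16712, which overlaps Ebi3, the gene of a subunit shared by the cytokines IL-27 and IL-35, measured 34.4 and 35.8 TPM, the closest values among the 15. Gm43221, with no bases in Fam102b exons, measured 18.4 and 35.0 TPM. Gm15655 and Gm37401, which overlap exons of Maf and Rhoa, are described with the replicate differences.

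At the threshold, Etaa1os (0.50 and 0.80 TPM), Gm11831 (0.50 and 2.26) and 1700034H15Rik (0.62 and 0.51) were just inside, and Gm34882 (0.49 and 1.07), 6330403L08Rik (0.49 and 0.83) and 1700105P06Rik (0.49 and 0.79) just outside. The 3 lowest means were those of Gm37885 (0.58 and 0.52 TPM), A230107N01Rik (0.54 and 0.57) and 1700034H15Rik. Counts at the line ran from 8 and 4 for Etaa1os to 128 and 114 for 6330403L08Rik.

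In position the detected loci were close to antisense loci as a whole. By the M21 annotation, 463 of 485 (95.5%, against 92.5% of all 3067) overlapped a protein-coding gene on the opposite strand, 56 of them more than 1, and the gene with the longest overlap was taken as the sense gene. Wholly inside it lay 279 (57.5%, against 53.5%). Exon bases were shared with any opposite-strand coding gene at 299 of the 485 loci (61.6%, against 57.5% of all 3067 antisense loci), at 40 for 50% or more of the exon bases and at 11 for all of them. At 164 loci the overlap held no shared exon bases, so that these loci lie in introns of the coding gene or have their own exons in its gaps. The remaining 22 overlapped no coding gene on the other strand. Of loci starting within 1000 bases of a start of an opposite-strand coding gene, 120 of 672 were detected (17.9%), and of the others 365 of 2395 (15.2%).

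The share of antisense loci that were detected was higher where the sense gene was higher. Where the coding gene had a mean under 1 TPM, 35 of 1589 overlapping loci were detected (2.20%). The share was 72 of 464 (15.5%) at 1 to 5 TPM, 191 of 520 (36.7%) at 5 to 20 TPM, 136 of 222 (61.3%) at 20 to 100 TPM and 29 of 42 (69.0%) at 100 TPM or more. The median level of the detected loci ran from 1.36 TPM in the lowest class to 5.34 TPM in the highest.

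Loci without exon bases in the coding gene's exons gave shares of 1.62%, 21.1%, 43.9%, 60.6% and 54.5% over the same 5 classes, the last from 6 of 11 loci. Loci with shared exon bases gave 2.63%, 12.9%, 33.1%, 61.5% and 74.2%. With kallisto TPM for both genes, the shares were 9.86%, 26.6%, 58.9%, 77.7% and 80.0%. The share was higher in each class than in the one below it in all of these series except the last step of the loci without shared exon bases. The part of unspliced sense RNA and of sense reads over shared exons in these shares was not tested.

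**Figure D2:**
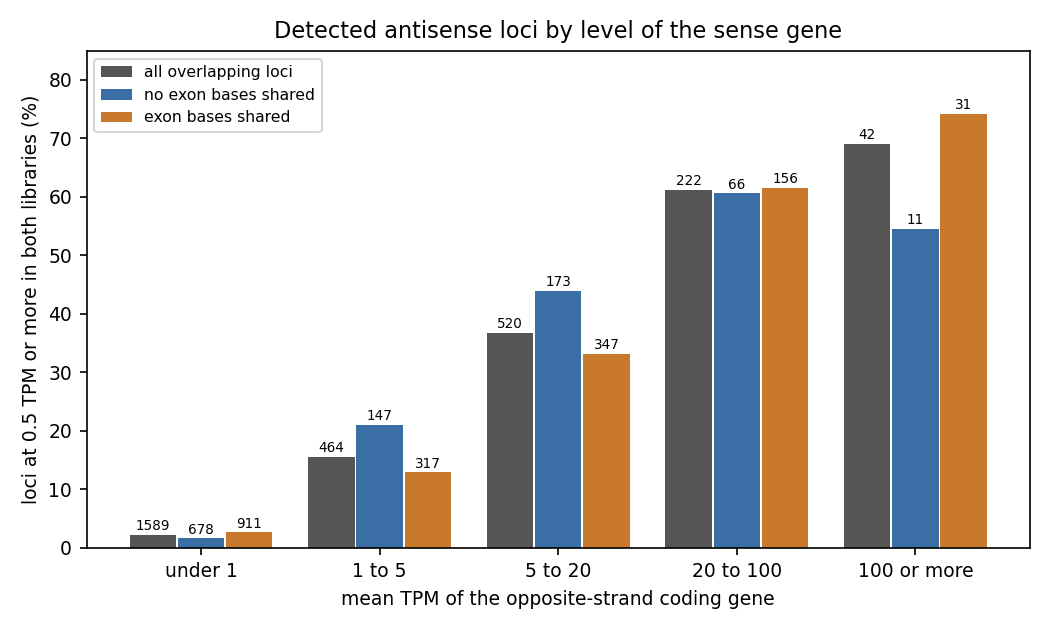
Bars give the percent of antisense loci at 0.5 TPM or more in both libraries, by the mean TPM of the coding gene they overlap, for all overlapping loci and for those without and with shared exon bases; the number over a bar is its number of loci. The share ran from 2.20% of 1589 loci opposite genes under 1 TPM to 69.0% of 42 loci opposite genes at 100 TPM or more.

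Whether the counting used strand is not given in the sources used here, and the 2 signal tracks listed for each library do not name a strand. At the X-inactivation locus, where the antisense gene Tsix overlaps Xist, Xist measured 132 and 179 TPM and Tsix 0.03 and 0.04 TPM, from 6 and 4 counts. At this locus the antisense gene was thus near 0 beside a highly expressed gene on the other strand. The same was not measured for the other loci, and whether the counting used strand was not tested.

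Antisense loci were usually lower than the coding gene opposite. Across the 463 overlapping loci, 400 were below the coding gene of longest overlap in both libraries, 48 above it in both and 15 changed order. The median difference, as log2 of antisense over sense TPM with 0.1 added to both, was -2.59 in replicate 1 and -2.25 in replicate 2 (mean -2.42 ± 0.235, SD, n = 2). Across these loci the Pearson correlation of antisense with sense log2 level was 0.38, over points that share libraries and, in part, exon bases, and in a set chosen for antisense level.

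The 27 detected loci named after a coding gene with the ending os allow the pairing to be read from the symbol alone. All 27 lie on the strand opposite their namesake and 23 overlap it. In 20 pairs the antisense locus was below its namesake in both libraries, in 3 above it and in 4 the order differed between the libraries. The median log2 difference was -2.42 in replicate 1 and -2.36 in replicate 2 (mean -2.39 ± 0.0423, SD, n = 2).

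Brip1os, Rab26os and Mypopos stood above their namesakes. Brip1os measured 6.65 and 10.8 TPM, and Brip1, a DNA repair helicase gene that it does not overlap in the annotation, 0.25 and 0.25. The coding genes that Brip1os does overlap are Ints2 and Med13, with 7.88% and 12.3% of its exon bases in their exons. Rab26os, a 1-exon locus with 31 and 35 counts, measured 5.42 and 11.6 TPM, and the small GTPase gene Rab26 0.60 and 1.15. Mypopos measured 4.24 and 9.20 TPM, and Mypop, a Myb-related transcription factor gene, 1.00 and 1.72. In each of these pairs both antisense values exceeded both sense values.

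Etaa1os, Phtf1os, Ccdc142os and Nr6a1os stood close to their namesakes, with the order differing between the libraries. Phtf1os measured 2.63 and 4.41 TPM against 2.83 and 3.98 for Phtf1. Of its exon bases 11.1% lie in Phtf1 exons and 51.9% in exons of Rsbn1, another coding gene that it overlaps. Nr6a1os measured 0.77 and 1.09 TPM against 0.71 and 1.21, and Ccdc142os 0.67 and 1.33 against 0.59 and 1.48. Differences of this size were smaller than those between the replicates.

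Lowest against their namesakes were Slfn5os, Rbm3os and Dhx58os. Slfn5os measured 1.30 and 1.13 TPM against 102 and 85.9 for the schlafen gene Slfn5. Rbm3os measured 0.70 and 0.75 TPM against 58.5 and 56.9 for the cold-inducible RNA-binding protein gene Rbm3. Dhx58os measured 0.94 and 0.79 TPM against 63.5 and 48.9 for Dhx58, the gene of the RNA sensor LGP2. By RSEM TPM all 3 coding genes were more than 50-fold above their antisense locus in both libraries. By kallisto TPM none of the 3 was. Slfn5os was at 3.45 and 3.87 against 51.5 and 58.6, and Rbm3os at 0.769 and 0.855 against 24.3 and 32.3. Dhx58os was at 0.933 and 4.37 against 43.9 and 43.0. RSEM counts were 21 and 10 for Slfn5os, 21 and 12 for Rbm3os and 63 and 28 for Dhx58os. Of the Slfn5os exon bases 50.7% lie in Slfn5 exons.

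Between these ends, Dnmt3aos (1.30 and 1.92 TPM) lay opposite the DNA methyltransferase gene Dnmt3a (24.2 and 25.7 TPM), and Aknaos (5.54 and 6.94 TPM) opposite Akna (71.5 and 50.3 TPM). Rab10os measured 8.45 and 9.14 TPM against 33.1 and 47.2 for Rab10, a membrane-trafficking GTPase gene. Peak1os measured 9.99 and 6.54 TPM against 15.2 and 16.4 for Peak1, a pseudokinase gene. Mean log2 differences of the remaining 13 pairs were all below -1, from -1.39 for N4bp2os to -3.84 for Stamos.

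**Figure D3:**
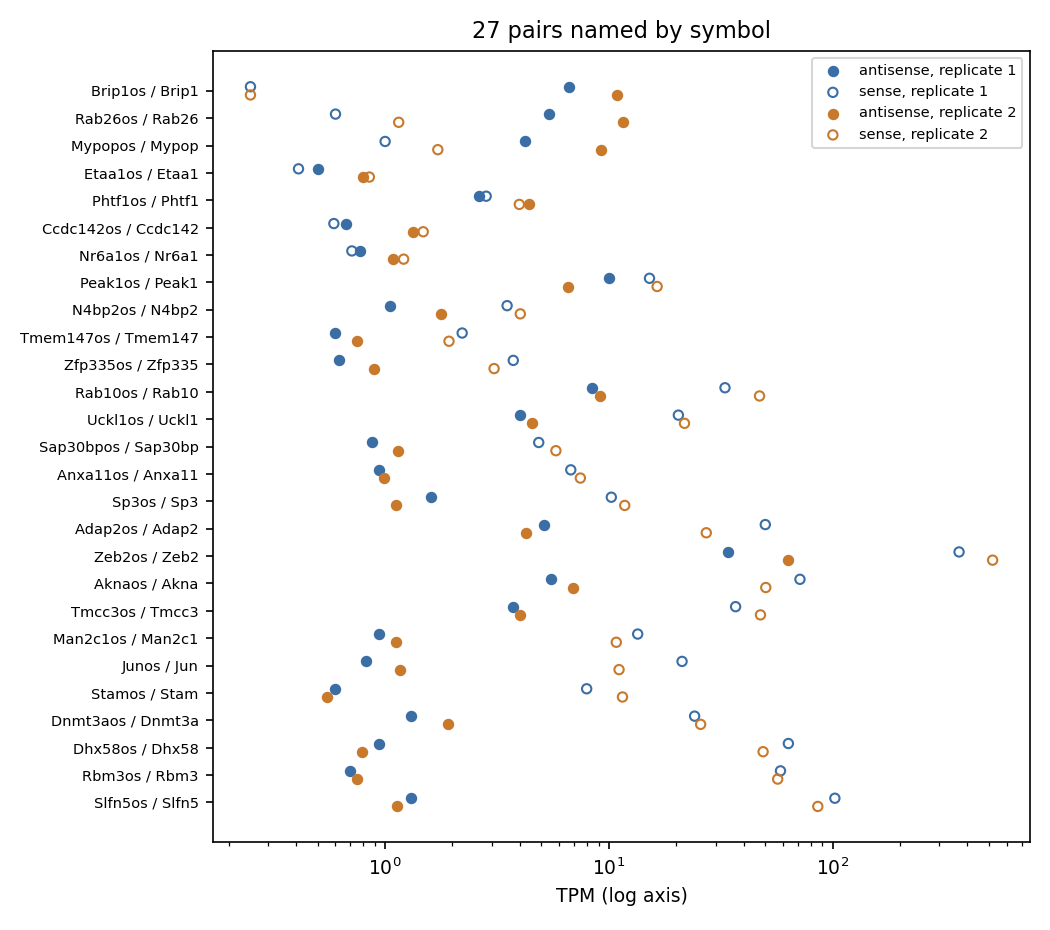
TPM on a logarithmic axis of 27 antisense loci (filled points) and of the coding genes they are named after (open points), blue for replicate 1 and orange for replicate 2, ordered by the mean log2 difference. In 20 pairs both filled points lie to the left of their open points, and in the 3 pairs at the top, Brip1os, Rab26os and Mypopos, to the right.

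Among the 48 loci above the coding gene of longest overlap in both libraries, Tug1 was the most abundant. Gm27177 measured 13.7 and 23.1 TPM, opposite Loxl2, a lysyl oxidase gene of the extracellular matrix that was itself at 0.16 and 0.24 TPM. 9530082P21Rik measured 5.79 and 3.65 TPM opposite Kremen2, which is listed at 0 in both libraries. A930007I19Rik measured 2.84 and 2.56 TPM opposite Pdcd1lg2, the gene of PD-L2, at 0.36 and 0.24. Gm27177, 9530082P21Rik and A930007I19Rik were chosen here after their values were seen. They also overlap Entpd4b, Flywch1 and Ric1 in turn, to which their levels were not compared. Gm27177 has 24.6% of its exon bases in Entpd4b exons and 4.36% in Loxl2 exons, and 9530082P21Rik 22.1% in Flywch1 and 4.13% in Kremen2. Dhx58os counts among the 48 through Zfp385c (0.10 and 0.12 TPM), although it lies below Dhx58, which it also overlaps.

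Antisense loci opposite genes of the lipid A response were then read from 5 lists of 237 genes. Of these genes 36 have an antisense locus opposite or named after them, 41 loci in all. Of the 41 loci, 20 were detected (48.8%, against 15.8% of all antisense loci). Map2k3os and Ptgs2os were counted as opposite by symbol only. They start 166 and 68 bases before their namesakes and do not overlap them. By list, 4 of 8 loci were detected opposite TLR4 pathway genes, 2 of 4 opposite immediate-early genes, 6 of 9 opposite interferon and antiviral genes, 4 of 9 opposite lipid A response and NF-κB genes and 4 of 11 opposite macrophage lineage genes. These lists hold many highly expressed genes, and the share detected varied with the level of the sense gene as given above.

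In the TLR4 pathway the detected loci lay opposite genes of the IKK and IRAK families. Besides the 2 loci in Ikbke, Gm47009 measured 2.62 and 4.61 TPM inside Irak3, the gene of the inhibitory kinase IRAK-M (22.1 and 27 TPM). Gm43964 measured 2.29 and 3.10 TPM inside Irak2 (78.9 and 77.9 TPM), which encodes an IRAK protein of the MyD88 complex, with 10 and 7 counts behind its values. Undetected were Gm39318 opposite the adaptor gene Tirap (0.25 and 0.59 TPM), Gm45542 opposite the receptor gene Tlr3, Map2k3os and Gm15346. The last lies inside Ikbkb, another gene of the IKK family (49.1 and 63.9 TPM). Gm15346 measured 0.08 and 0.15 TPM by RSEM and 1.61 and 7.10 by kallisto.

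Opposite interferon-stimulated genes, Gm20234 measured 14.5 and 13.7 TPM across Slfn2, a schlafen gene at 260 and 229 TPM. Gm13822, which starts 37 bases from the start of Oasl1, a gene of the oligoadenylate synthetase-like family, measured 8.24 and 5.70 TPM against 209 and 123 for Oasl1. Gm45479 and Gm31172, both in introns of the transcription factor gene Irf2, measured 4.80 and 8.62 TPM and 0.77 and 1.47 TPM, against 22.4 and 18.6 for Irf2. Of the 6 loci of this list, Gm20234, Gm13822, Slfn5os and Dhx58os had lower RSEM TPM in replicate 2, while the Irf2 loci had higher, and all of the coding genes had lower. By kallisto TPM Gm13822 alone of those 4 loci was lower in replicate 2. Gm20234 was at 62.2 and 89.6, Slfn5os at 3.45 and 3.87 and Dhx58os at 0.933 and 4.37. The Irf2 loci did not have more counts in replicate 2, with 136 and 130 for Gm45479 and 4 and 4 for Gm31172. By kallisto TPM Gm45479 was at 3.83 and 6.49 and Gm31172 at 11.3 and 22.7. Over all genes the median log2 TPM ratio of replicate 2 over replicate 1 was 0.34. The log2 ratio of scaled counts of Gm45479 was 0.49 by RSEM and -0.21 by kallisto.

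Opposite immediate-early genes, Gm36328 measured 2.23 and 5.81 TPM inside the MAP kinase phosphatase gene Dusp16 (12.9 and 19.4 TPM), and Junos 0.82 and 1.17 TPM opposite Jun (21.3 and 11.1 TPM), the gene of the AP-1 subunit c-Jun. Junos rested on 16 and 12 counts. Opposite NF-κB and lipid A response genes, Gm40578 was followed by Gm26885 (2.63 and 0.89 TPM, opposite the kinase gene Pim1), Gm15283 (0.79 and 2.41 TPM, opposite Hif1a, the hypoxia-inducible factor gene) and Gm16174 (0.90 and 1.69 TPM, inside Bcl3, a nuclear IκB family gene). By RSEM TPM Gm15283 was higher in replicate 2 and Gm26885 in replicate 1. By kallisto TPM both were higher in replicate 2, Gm15283 at 2.02 and 4.52 and Gm26885 at 4.74 and 7.34. Gm16174 rested on 8 counts in each library and was at 8.12 and 21.3 TPM by kallisto.

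Il1bos, opposite the interleukin-1β gene, and Ptgs2os, named after the cyclooxygenase-2 gene, were not among the 485. Ptgs2os starts 68 bases before the start of Ptgs2, on the other strand, and does not overlap it. Il1bos measured 0.67 and 0.40 TPM against 99.8 and 110 for Il1b, and Ptgs2os 0.39 and 0.32 TPM against 38.6 and 30.2 for Ptgs2. Both were thus quantified in each library, Il1bos from 54 and 19 counts and Ptgs2os from 32 and 14, and fell below 0.5 RSEM TPM in at least 1 of them. By kallisto Il1bos was above that line in both libraries, at 1.10 and 2.46 TPM, and Ptgs2os was at 0.171 and 0.184.

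Opposite lineage genes, Zeb2os and Gm15655 were followed by Gm14011 inside Mertk, a receptor for apoptotic cells, at 1.59 and 3.06 TPM from 7 counts in each library, and by Gm26626 inside the transcription factor gene Runx1 at 0.61 and 0.60 TPM. By kallisto TPM Gm14011 was at 11.8 and 16.3 and Gm26626 at 2.24 and 4.30. Gm45091 opposite Cebpa, a myeloid transcription factor gene, is listed at 0 in both libraries. The 2 loci opposite Meis1 lay at 0.08 TPM or below, and Meis1 itself at 0.24 and 0.42 TPM.

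**Figure D4:**
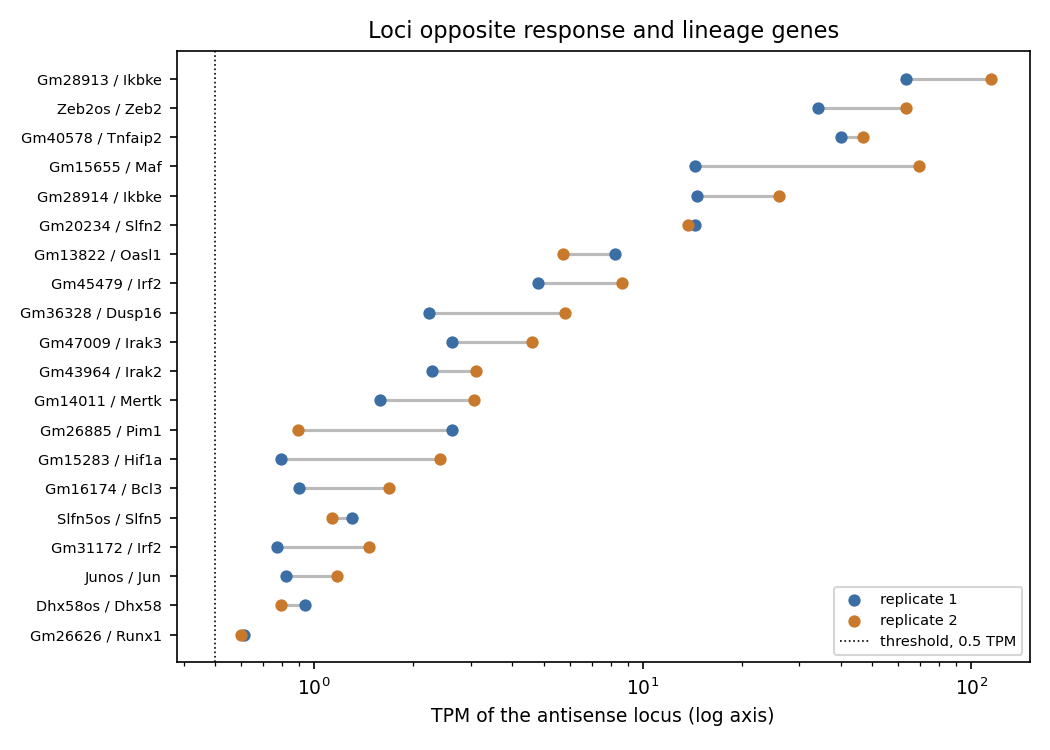
TPM on a logarithmic axis of the 20 detected antisense loci opposite genes of the 5 lists, labelled with the coding gene, blue for replicate 1 and orange for replicate 2. Gm28913, Zeb2os, Gm40578 and Gm15655 lie between 14.4 and 115 TPM, and 8 of the 20 have a mean under 2 TPM.

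Replicate 2 over replicate 1 was compared by the log2 ratio of TMM-scaled counts over genes averaging 10 counts or more, which 461 of the 485 loci passed and 24 did not. A log2 ratio beyond 1 either way, a 2-fold difference, was counted. Of 14831 genes, 13.4% passed it, 7.52% higher in replicate 2 and 5.85% lower. Of the 461 antisense loci 76 passed it (16.5%), 48 higher (10.4%) and 28 lower (6.07%), near those shares. The 461 loci had a median ratio of 0.17, against 0.01 over all 14831 genes and -0.08 over 9571 protein-coding genes. Of the protein-coding genes 4.96% differed by more than 2-fold.

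Counts of the antisense loci were lower than those of coding genes, with a median mean count of 70.0 against 446. Within the same range of mean counts, from 100 to 300, 12.4% of 105 antisense loci and 5.15% of 2427 protein-coding genes differed by more than 2-fold, with medians of 0.24 and 0.04. At 300 counts or more the shares were 6.41% of 78 and 4.14% of 5731, with medians of 0.19 and -0.12. Among other non-coding classes, the 267 lincRNA genes had a median of -0.03, the 140 bidirectional and sense intronic genes 0.42, and the 724 TEC loci (transcripts awaiting experimental checks) 0.60. Beyond 2-fold were 15.7%, 15.7% and 24.3% of these classes in turn, beside 16.5% of the antisense loci. From 100 to 300 counts the shares were 15.3%, 18.6% and 31.6%, beside 12.4%. The wider spread than in coding genes was thus not particular to antisense loci.

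The ratio differed by position. The 154 loci that overlap a coding gene without sharing exon bases had a median ratio of 0.49, and 30 of them were higher and 4 lower in replicate 2 by more than 2-fold. Where under 50% of the exon bases were shared (251 loci) the median was -0.03, 9 being higher and 18 lower, and at 50% or more (36 loci) it was 0.00, 8 being higher and 5 lower. Without an overlap (20 loci) it was -0.26, 1 being higher and 1 lower. By kallisto counts, the medians of the same groups were 0.27, -0.09, 0.03 (over 32 loci) and -0.34, and the lopsided split of the loci without shared exon bases was gone, with 5 higher and 4 lower. The other 3 groups had 4 higher and 14 lower, 6 and 4, and 0 and 3.

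These counts depended on the quantification. By kallisto counts, 42 of 480 loci differed by more than 2-fold (8.75%, against 16.8% of all 23904 genes), 17 higher and 25 lower, and the median was 0.01 against 0.04. Higher calls thus made 63.2% of the calls by RSEM and 40.5% by kallisto, and 24 loci passed the same way in both, 10 higher and 14 lower. Calls made the same way in both were not counted over all genes, so the 24 have no background. On other scalings of the RSEM counts the split moved as well, to 66 higher and 20 lower by library totals and 88 higher and 13 lower by TPM, where the median of all genes was 0.18 and 0.34. Among all genes called, 56.2% were higher by the TMM-scaled RSEM counts, 64.7% by kallisto, 72.5% by library totals and 84.9% by TPM, against 63.2%, 40.5%, 76.7% and 87.1% for the antisense loci. Gene counts differ by library (29400104 and 17789543), as does RNA input, and their part in the ratios was not tested.

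**Figure D5:**
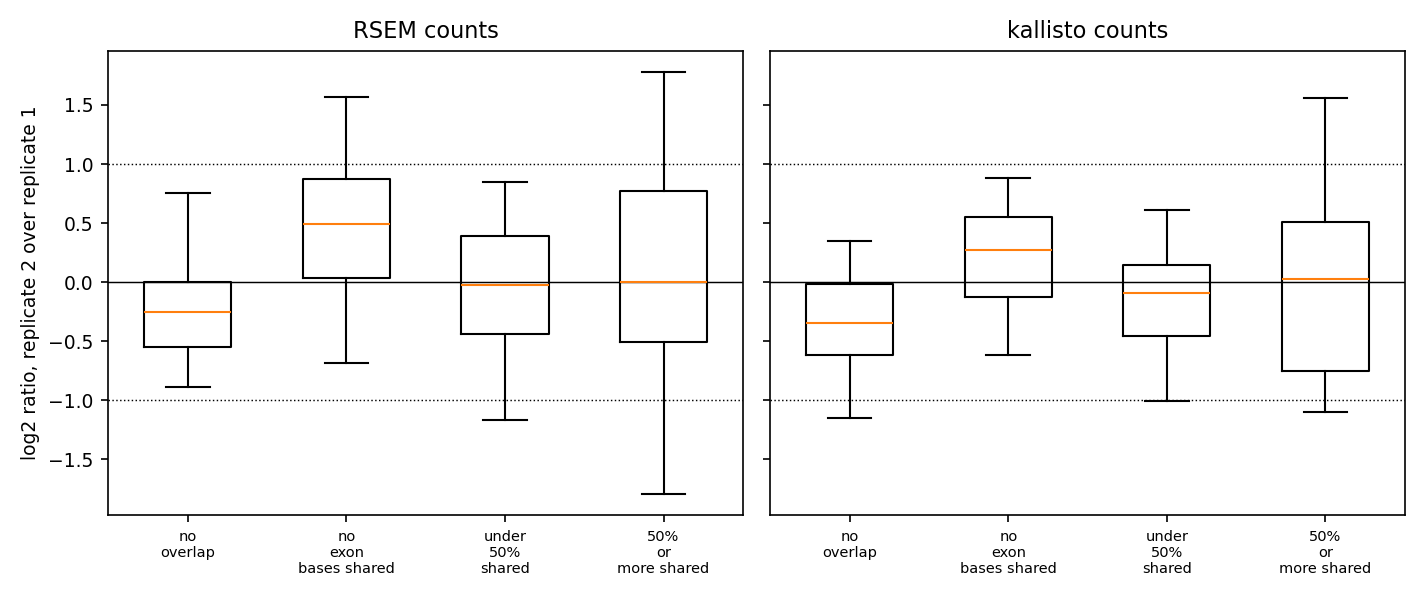
Log2 ratio of replicate 2 over replicate 1 for 461 antisense loci grouped by the share of exon bases in exons of the opposite-strand coding gene, by RSEM counts on the left and kallisto counts on the right, where 4 loci averaging under 10 kallisto counts are left out; boxes give the median and quartiles, whiskers the 5th and 95th percentiles, and dotted lines a 2-fold difference. Loci without shared exon bases have medians of 0.49 and 0.27, above those of the other groups in both panels.

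The largest ratio upward among loci of at least 50 counts was that of Gm15655, whose 440 exon bases all lie in exons of Maf, a transcription factor gene of macrophages. It measured 14.4 and 69.4 TPM from 155 and 396 counts, a log2 ratio of 1.91 (1.20 by kallisto), while Maf had a ratio of 0.25. Gm37401, with 93.4% of its exon bases in Rhoa exons, followed at 1.58 (12.4 and 47.8 TPM, 79 and 161 counts). Gm42893 (1.54), Gm38134 (1.51) and Gm32036 (1.43) came next, the last in Elmo1, a gene of phagocytic uptake, at 1.12 and 3.87 TPM. By kallisto Gm37401 (1.17) and Gm42893 (1.56) kept a ratio beyond 2-fold, and Gm38134 (0.90) and Gm32036 (0.82) did not.

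Downward, Gm26885 opposite Pim1 fell from 323 to 58 counts, a log2 ratio of -1.91 that was -0.57 by kallisto. A130051J06Rik opposite Ano6, a phospholipid scramblase gene, had -1.69 and, by kallisto, -0.65. Trmt61b, which M21 gives antisense transcripts opposite Spdya, had -1.59, Gm15726 opposite the ubiquitin ligase gene Mid1 -1.48, and A330040F15Rik opposite Fam111a -1.43. The last 3 kept ratios beyond 2-fold by kallisto, at -1.31, -1.42 and -1.33.

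The 2 quantifications disagreed more on antisense loci than over all 12176 genes at 0.5 RSEM TPM or more in both libraries. Those genes had a median level of 4.8 TPM, against 1.94 for the antisense loci, and were not matched for level. Relative to the median shift of the 12176 genes, kallisto TPM of the antisense loci was higher than RSEM TPM by a median log2 difference of 0.48 in both libraries. It was more than 2-fold higher in both at 131 of the 485 loci (27.01%, against 6.98% of the 12176 genes) and more than 2-fold lower at 7 (1.44%, against 1.01%). The share more than 2-fold higher was 36.0% of the 164 loci without shared exon bases, 22.8% of the 259 with under 50% shared, 17.5% of the 40 with 50% or more and 27.3% of the 22 without an overlap.

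Gm17139, with all 571 exon bases in exons of Arel1, measured 9.45 and 7.42 TPM by RSEM and 0.0945 and 0 by kallisto. Gm26716 in Sdc3 was lower by kallisto as well. In the other direction, Gm49226 in introns of App, the amyloid precursor gene, measured 1.44 and 3.98 TPM by RSEM and 16.2 and 36.9 by kallisto. 1700058P15Rik opposite Vasp, an actin regulator gene, measured 2.12 and 2.19 and then 17.4 and 21.5, and Gm43964 in Irak2 2.29 and 3.10 and then 21.9 and 26.1. The 2 loci lower by kallisto share all exon bases with the coding gene and the 3 higher share none.

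Of the 485 loci, 176 have at least 2 annotated transcripts and 309 have 1. Among the 176, the leading transcript held a median of 76.9% of the locus's TPM in replicate 1 and 83.1% in replicate 2 (mean 80.0% ± 4.37, SD, n = 2). It was the same in both libraries at 154 loci, and it held over 90% in both at 50. Kallisto named another leading transcript at 55 of the 176. Transcripts of the biotype antisense held 95.7% and 96.1% of the TPM of all 485 loci, and retained-intron transcripts 4.06% and 3.69%.

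Several abundant loci were split between forms. BE692007 was shared between a spliced antisense form (54.3% and 46.0%) and a retained-intron form of 4331 bases (45.7% and 54.0%), with the order changing between the libraries. Zfas1 had 56.4% and 45.3% on its 738-base antisense form, and its longest retained-intron form took 13.8% and 30.6%. Tug1 was spread over 4 long forms, whose mean shares were 27.2%, 26.1%, 24.8% and 21.2%. A530040E14Rik, by contrast, had 92.5% and 97.4% on 1 of its 6 forms.

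Zeb2os had no dominant form by RSEM. Its transcripts 206, 201 and 204 held 35.4% and 29.5%, 34.7% and 21.3%, and 18.2% and 37.4% of its TPM. Kallisto instead gave the locus 134 and 246 TPM and put 76.0% and 76.9% of that on transcript 203, a 61-base entry of the biotype misc_RNA that RSEM lists at 0. This entry lies at chr2:45112488-45112548 on the plus strand, and its letters are also contained in transcript Zeb2os-205. It is printed to show how short the sequence behind that difference is.
Zeb2os-203: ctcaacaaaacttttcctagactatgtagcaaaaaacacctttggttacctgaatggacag
Kallisto gave it an effective length of 17.9 and 14.9 bases and estimated counts of 256 and 195. Divided by so short a length, these counts made 102 and 189 of the locus's TPM, and the rest of the locus came to less than its RSEM value in replicate 1 and in replicate 2.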

How the data were processed

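Ribo-depleted total RNA of 2 libraries in 1 group was analysed. The authors deposited, per gene and transcript, an expected count, TPM and FPKM and, per transcript, the percent of its gene's TPM, under RSEM column names. They also deposited an estimated count and TPM per transcript under kallisto column names, summed here per gene. Assembly mm10 and GENCODE M21 are given in the deposited read-me files. Aligner, versions and strand setting: not given in the sources used here. Expected counts were rounded to whole numbers. Log2 ratios used TMM factors (edgeR 4.0.16) and a prior count of 0.5. DESeq2 1.42.0 size factors served as an alternative scaling. Overlaps and exon sharing came from the M21 annotation, promoters from RefSeq (GRCm38.p6). The ratio rule was tested on simulated data. Counting precision is limited at low depth: without molecular identifiers, counts are not independent molecules.

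The loci and gene lists were chosen with earlier results of these data known, and the classes of sense-gene level and of exon sharing after the data were seen. Named are the 15 loci of highest mean TPM, the 3 lowest and 3 just under the threshold, loci with an os symbol (up to 30), loci opposite a list gene (up to 25), the 5 largest replicate ratios each way at 50 counts or more, the 5 largest differences between quantifications at a mean of 2 TPM or more, and the 5 most abundant with at least 3 transcripts. Others are said to be chosen by value. Some items are not reported here.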

Additional observations from a re-analysis of the deposited data

How the results depend on the processing

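No paired analysis was possible because both libraries belong to 1 group. The number of loci detected was 319 at a threshold of 1 TPM and 811 by kallisto TPM. It stayed within 1.5-fold of 485 at 0.25 TPM and with 1 library left out (548 to 663). The median level was 3.02 by FPKM and 2.69 by counts scaled to library size (CPM), and 1.60 to 2.35 TPM with 1 library left out. Loci beyond 2-fold between the replicates numbered 42 of 480 by kallisto counts (8.75%, against 16.8% of all 23904 genes). At a mean count of 50 or more they numbered 33 of 277 (11.9%, against 8.37% of all 11119 genes). The median log2 ratio over all antisense loci compared was 0.34 by library totals, 0.49 by TPM and 0.009 by kallisto. The median os difference was -1.60 by kallisto, -2.04 and -2.47 at pseudocounts of 1 and 0.01, -3.20 by CPM, -2.32 with numbered os symbols, and -2.42 to -2.36 with 1 library left out. Its sign was negative in all of these. Loci above their namesake numbered 5 by kallisto and 4 to 6 with 1 library left out. The leading transcript's share was 72.0% by kallisto and 76.9% to 83.1% with 1 library left out. Opposite genes under 1 TPM, 9.86% of loci were detected by kallisto, 6.04% by a mean count of 10 or more, and 2.94% to 3.86% with 1 library left out. These settings were chosen after the data were seen. At 20 to 100 TPM the share was 61.3% and stayed within 1.5-fold under all 5 settings run, 62.2% to 69.5% with 1 library left out. Of 68 named loci, kallisto moved the mean level of 47 by more than 1 SD, 29 higher and 18 lower. The causes were not tested. Low counts limit loci near the threshold.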
